A study of Mus musculus with 8 samples.

Results

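The 58 genes described here encode the machinery of mitosis: the CDK1 kinase and its cyclins, the mitotic kinases, the spindle checkpoint, the kinetochore, the motors and fibres of the spindle, the cytokinesis apparatus, the condensin complex and 2 transcription factors that drive these genes. They were chosen by name, as genes with a known role in mitosis, and with earlier results of these data known. All 58 were found among the 18806 genes of the deposited table, and all 58 were among the 14578 genes tested after low counts were filtered out. Colon RNA was sequenced from 8 mice, all of them with colitis brought on by dextran sulfate sodium (DSS), which damages the lining of the colon. The 4 mice of the DSS group received no bacterium, and the 4 mice of the DSS+AP group were also given Alistipes putredinis (AP), an anaerobic gut bacterium. Each library came from 1 mouse picked at random from its group, so n counts mice. The sources used here name no strain, genotype, sex, age, dose or time of sampling. All 8 mice had received DSS, so levels in uninjured colon are not known from these data. Libraries are called DSS 1 to 4 and DSS+AP 1 to 4 after their labels, and values of 4 libraries are given in that order.

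In the healthy colon, most dividing cells are epithelial cells near the base of the crypts, where stem cells and their early descendants replace the cells shed at the surface. A cell that enters mitosis activates CDK1 with cyclin B, condenses its chromosomes, builds a bipolar spindle and attaches each kinetochore to spindle fibres. The spindle checkpoint holds the anaphase-promoting complex in check until all kinetochores are attached, after which securin and cyclin B are degraded, the sister chromatids separate and the cell divides. Most of the genes for these proteins are transcribed mainly in late S, G2 and M phase and are low in resting cells. Immune and connective tissue cells can divide as well, and in RNA from whole tissue more dividing cells and more of this RNA per dividing cell cannot be told apart.

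Much of this timed transcription is read from short promoter elements. The cell cycle genes homology region, or CHR, with the letters TTTGAA or TTTAAA, is bound by the MuvB complexes, which keep the genes silent in resting cells and, with MYBL2 and FOXM1, activate them in G2. The CCAAT box is bound by NF-Y. RefSeq promoter sequences of the build GRCm38.p6, 300 bases long with 250 before and 50 after the transcription start, were matched for 49 of the 58 genes, in 54 windows because 4 genes have several starts. Stretches from 120 to 10 bases before the start are printed below for 11 genes, 5′ to 3′ on the strand of the gene, with every match to the CHR or CCAAT letters on either strand in capitals. The start is that of the promoter sequence, which is not always the outermost base of the RefSeq gene. The stretch of Kif14 lies wholly within the RefSeq gene, and those of Espl1, Ncapg and Top2a reach into it. On the opposite strand TTTGAA reads TTCAAA and CCAAT reads ATTGG, and TTTAAA reads the same on both. Top2a, Cdk1, Cdc20, Ube2c, Espl1 and Kif11 are shown because CHR letters lie a short way downstream of a CCAAT box. Plk1 and Kif14 are shown for the TTTAAA form and Ncapg for a CHR match with no CCAAT box in the stretch. Cenph and Ncaph are shown because both rose in DSS+AP and neither stretch holds a match.
Top2a, chr11:99024199-99024309, minus strand: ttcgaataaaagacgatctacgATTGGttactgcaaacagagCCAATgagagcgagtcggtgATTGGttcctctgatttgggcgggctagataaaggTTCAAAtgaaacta
Cdk1, chr10:69352922-69353032, minus strand: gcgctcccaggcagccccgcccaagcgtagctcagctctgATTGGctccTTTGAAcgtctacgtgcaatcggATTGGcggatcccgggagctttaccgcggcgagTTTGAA
Cdc20, chr4:118437353-118437463, minus strand: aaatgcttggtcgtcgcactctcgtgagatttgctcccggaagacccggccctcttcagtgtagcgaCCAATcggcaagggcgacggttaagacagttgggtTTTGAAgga
Ube2c, chr2:164769809-164769919, plus strand: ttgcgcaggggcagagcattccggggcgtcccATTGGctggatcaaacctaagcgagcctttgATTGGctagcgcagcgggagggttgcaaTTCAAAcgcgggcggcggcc
Espl1, chr15:102296173-102296283, plus strand: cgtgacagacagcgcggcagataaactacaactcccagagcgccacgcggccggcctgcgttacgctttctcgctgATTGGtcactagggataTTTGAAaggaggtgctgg
Kif11, chr19:37376262-37376372, plus strand: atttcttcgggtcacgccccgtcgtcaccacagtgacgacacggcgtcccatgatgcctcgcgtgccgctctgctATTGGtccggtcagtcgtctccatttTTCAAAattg
Plk1, chr7:122159315-122159425, plus strand: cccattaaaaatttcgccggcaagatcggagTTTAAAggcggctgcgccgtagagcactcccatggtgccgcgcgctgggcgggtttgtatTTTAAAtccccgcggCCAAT
Kif14, chr1:136467728-136467838, plus strand: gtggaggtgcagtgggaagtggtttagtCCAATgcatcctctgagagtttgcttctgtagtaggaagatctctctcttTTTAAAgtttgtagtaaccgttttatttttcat
Ncapg, chr5:45669805-45669915, plus strand: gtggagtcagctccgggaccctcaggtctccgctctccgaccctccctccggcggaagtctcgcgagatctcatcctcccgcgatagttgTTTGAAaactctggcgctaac
Cenph, chr13:100775909-100776019, minus strand: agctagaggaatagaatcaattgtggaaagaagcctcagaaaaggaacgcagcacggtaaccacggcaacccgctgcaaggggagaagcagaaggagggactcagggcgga
Ncaph, chr2:127133964-127134074, minus strand: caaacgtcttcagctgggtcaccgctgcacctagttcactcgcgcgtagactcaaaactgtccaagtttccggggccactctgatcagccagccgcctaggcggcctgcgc

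Both kinds of letters were common in these promoters. TTTGAA was found in 33 of the 49 genes with sequence (67.3%), against 14.8% of the 11562 tested genes with a promoter sequence. Within 50 bases on either side of the start the shares were 59.2% (29 genes) and 4.0%. TTTAAA was found in 12 genes (24.5%, against 11.2%), and 1 of the forms at least in 37 (75.5%, against 23.1%). CCAAT was found in 35 genes (71.4%, against 42.6%), and both kinds together in 30 (61.2%, against 10.8%). Among all the member windows 2 pairs of matches overlapped. A match is a description of the letters and not a measured binding site. The 37 genes with CHR letters had a median log2 fold change of 0.70 and the 12 without them 0.74, a difference that was not tested. Of the 37 genes 10 rose in DSS+AP (27.0%), and of the 12 genes 5 (41.7%). Outside the 58 genes, 9.97% of the tested genes with CHR letters and 8.98% of those without were higher in DSS+AP, and 19.97% and 19.12% were lower. These differences were not tested either.

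**Figure D1:**
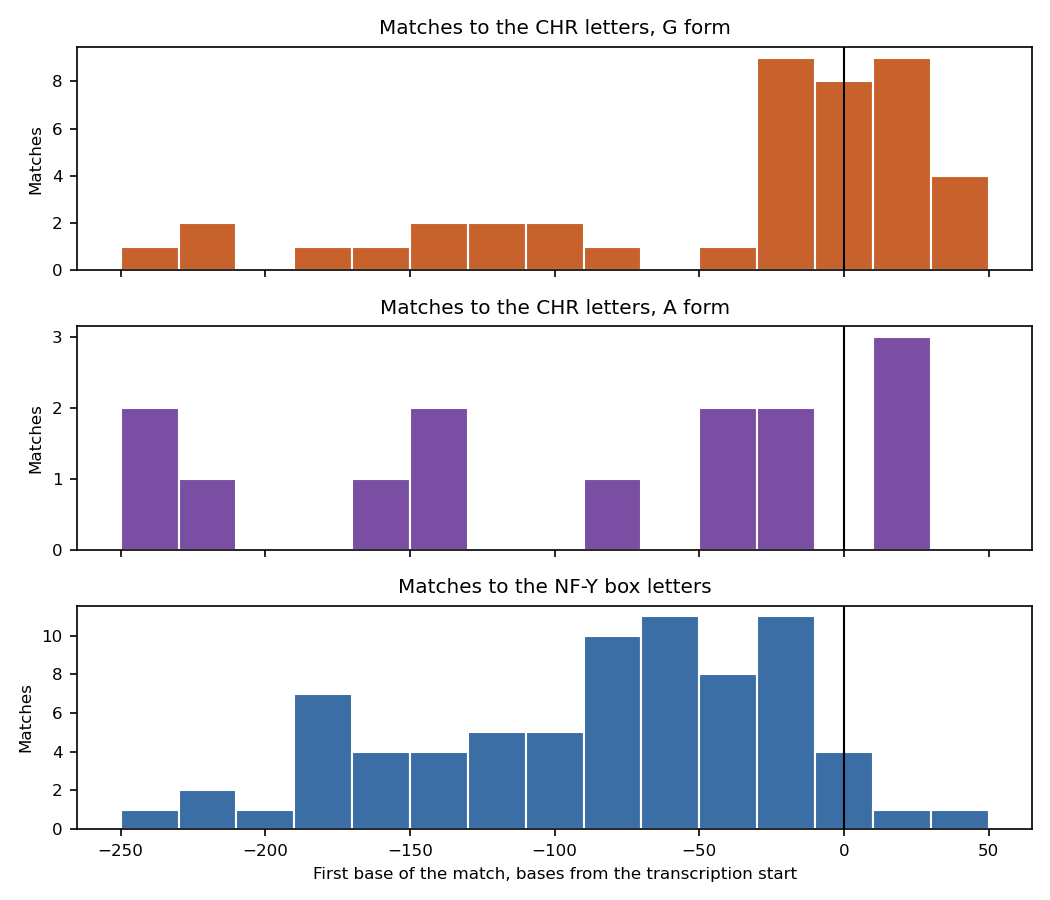
Positions of matches to the CHR letters (G form, top; A form, middle) and to the NF-Y box (CCAAT, bottom) in 1 promoter window per gene, on either strand. The horizontal axis gives bases from the transcription start (black line) and the vertical axis the number of matches per 20 bases. Of 43 G-form matches 31 lie within 50 bases of the start, and 44 of 75 NF-Y box matches begin between 100 and 10 bases before it.

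The comparison asked what Alistipes putredinis does to gene expression in colitis. Messenger RNA of the mitotic genes was higher on average in DSS+AP colon, and the shift had the same sign in all 58. Fitted log2 fold changes (DSS+AP over DSS) ran from 0.22 for Bub3 to 1.08 for Cenph, with a median of 0.71, a 1.64-fold difference, while the median over all genes tested was 0.02. By edgeR with an adjusted p under 0.05, 15 of the 58 genes rose (25.9%), and 8.84% of all genes tested rose. None fell, against 20.4% of all genes. The 15 were Cenph, Kif15, Top2a, Kif11, Ncaph, Cenpf, Aurka, Kif14, Ncapg, Bub1b, Nusap1, Plk1, Ncapd2, Cdc25b and Pttg1, which range from kinetochore and spindle motor to condensin and securin. At an unadjusted p under 0.05, 44 genes were higher (75.9%), against 17.5% of all genes. A fitted log2 fold change above 0 was found in 52.1% of all genes. The 58 genes were measured in the same 8 mice and varied together from mouse to mouse, so the shared sign is not 58 separate observations.

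Mice of the DSS group differed widely from each other in these genes. Levels in CPM (the count relative to a library total scaled with TMM factors) summed over the 58 genes were 2137, 1436, 862 and 1367 in DSS and 2165, 2906, 2265 and 2011 in DSS+AP. DSS 1 thus lay within the range of the treated mice, and DSS 3 was the lowest of all 8. The mean log2 CPM over the genes was 4.79, 4.19, 3.44 and 4.13 in DSS (4.14 ± 0.55, SD, n = 4) and 4.79, 5.21, 4.87 and 4.67 in DSS+AP (4.88 ± 0.23, n = 4). Gene by gene the order was almost the same: DSS 1 was the highest DSS mouse for 57 genes (not for Pttg1), DSS 3 the lowest for 56 (not for Pttg1 or Bub3), and DSS+AP 2 the highest treated mouse for 56 (not for Pttg1 or Cenpk). DSS 1 exceeded DSS 3 by a median ratio of 2.67, from 0.919 for Pttg1 to 3.89 for Ttk. The SD of log2 CPM had a median of 0.59 in DSS and 0.26 in DSS+AP over the 58 genes, and 0.21 and 0.17 over all genes tested. It was larger in DSS for 57 of the 58, all but Pttg1, and for 61.0% of all genes.

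**Figure D2:**
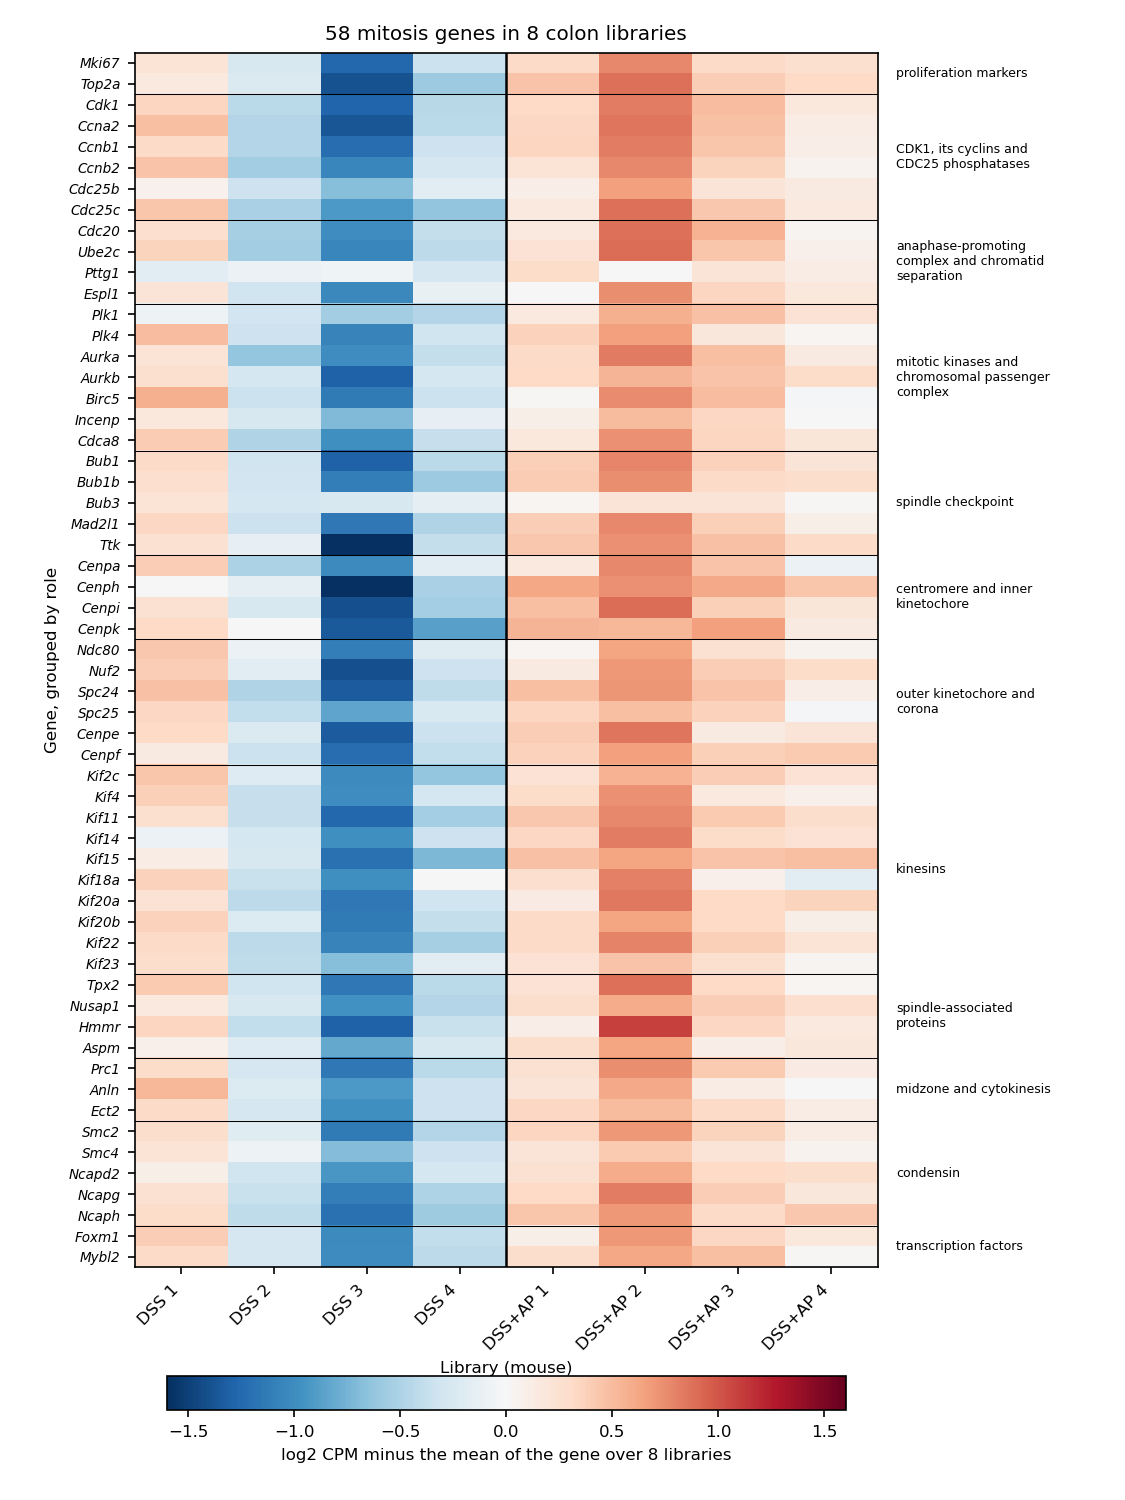
Relative level of each of the 58 genes (vertical axis, grouped by role) in each of the 8 libraries (horizontal axis), with colour giving the log2 CPM as a difference from the mean of that gene over all libraries. DSS 3 is the lowest library for 56 genes and DSS+AP 2 the highest for 55, and DSS 1 lies near the DSS+AP libraries.

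Every DSS+AP mouse lay above every DSS mouse for 17 genes (29.3%), against 10.8% of all genes tested, and for none did every one lie below. The groups overlapped for 41 genes, and for 40 of them DSS 1 was the single mouse of its group at or above the lowest DSS+AP mouse. The exception was the kinesin gene Kif18a, for which this held for DSS 4 too. Without DSS 1, the groups did not overlap for 57 of the 58 genes, against 17.6% of all genes. That number follows from the counts just given and is no further result. DSS 1 was the highest DSS mouse for 57 of the 58 genes, so leaving it out does not treat them and all genes alike. The edgeR count of genes that rose went from 15 to 55 without DSS 1, against 9.96% of all genes. Leaving out any other mouse lowered the count, to 8 without DSS 2 (13.8% of the 58, against 14.3% of all genes), 8 without DSS 3 (13.8%, against 5.77%) and 2 without DSS 4 (3.45%, against 3.59%). Without DSS+AP 1, 2, 3 or 4 it was 4, 4, 3 and 4, or 6.90%, 6.90%, 5.17% and 6.90% of the 58 genes, against 6.53%, 8.82%, 3.82% and 5.15% of all genes. So in 6 of these 7 fits the share of the 58 genes that rose was below the background or less than 2 percentage points above it, and all 58 fitted changes were above 0 in each of the 8. DESeq2 called 35 genes higher (13.7% of all genes) and limma-voom with quality weights 50 (16.5%), both more than 1.5 times the 15 of edgeR. With RLE factors 17 rose (10% of all genes), with upper quartile factors 10 (6.75%), without a low-count filter 16 (10.7%), with a minimum of 1 CPM in 4 libraries 14 (8.63%), without robust estimation 15 (8.75%) and with a replicate block 7 (3.99%). With library totals in place of TMM factors 6 genes rose (5.26%), and the split over all genes moved from 1288 higher and 2974 lower to 767 and 3211.

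**Figure D3:**
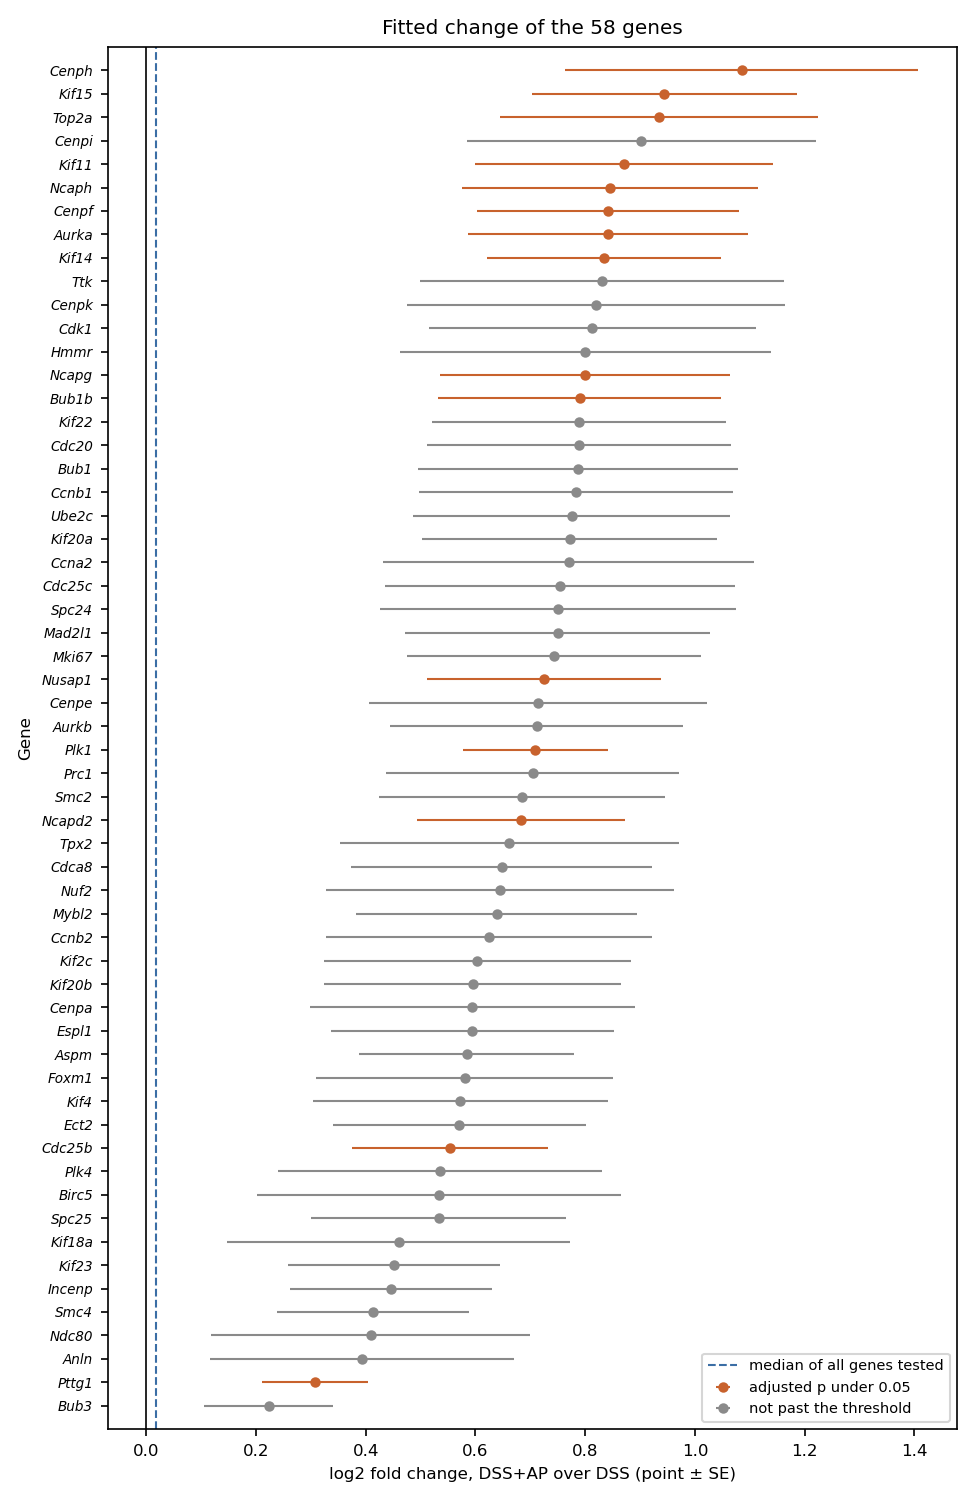
Fitted log2 fold change, DSS+AP over DSS, of each of the 58 genes (point, with its SE as a line), sorted by size, with genes past an edgeR adjusted p of 0.05 in orange and the others in grey. All points lie above 0 (black line) and above the median of all genes tested (0.02, dashed), from 0.22 for Bub3 to 1.08 for Cenph.

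The genes are described below by role, in 12 groups of 2 to 10 genes. Counts of rises in groups this small, beside the 8.84% of all genes that rose, describe the members and do not set a role apart. The general markers of dividing cells were both higher in every DSS+AP mouse than in every DSS mouse, though 1 of them missed the threshold. Top2a encodes the topoisomerase that untangles the chromosomes before they separate (gene 21973; chromosome 11, 98992947 to 99024199, GRCm38.p6, like all positions given). Its levels were 171, 131, 57.9 and 102 CPM in DSS and 209, 283, 200.4 and 190.1 CPM in DSS+AP, with DSS 3 the lowest. The group mean rose from 115 ± 47.6 to 221 ± 42 CPM (± SD over 4 mice, as in all such pairs below), and the log2 fold change was 0.93 ± 0.29 (± SE; edgeR adjusted p = 0.0396). Mki67 encodes the antigen Ki-67, which coats mitotic chromosomes and is present in all cycling cells (gene 17345; chromosome 7, 135689784 to 135716450). It stood at 233, 167, 84.1 and 158 CPM in DSS and 248, 341, 248 and 239.6 CPM in DSS+AP, so the groups did not overlap, by the margin between DSS 1 and DSS+AP 4. The log2 fold change of 0.74 ± 0.27 did not pass (edgeR adjusted p = 0.0648).

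Of the 6 genes of the CDK1 engine 1 rose, with a median log2 fold change of 0.76. Cdk1 encodes the kinase that drives entry into mitosis (gene 12534; chromosome 10, 69335146 to 69352912). It was at 39.3, 23, 12.8 and 22.6 CPM in DSS and 38.6, 54.8, 43.7 and 34.6 CPM in DSS+AP, and DSS 1 lay above both DSS+AP 1 and DSS+AP 4. Ccnb1, which encodes the cyclin B1 that activates CDK1, was at 36.3, 21.2, 12.6 and 23.4 CPM in DSS and 37.4, 51.8, 40.1 and 31.8 CPM in DSS+AP, again with DSS 1 among the treated mice. Neither passed, with log2 fold changes of 0.81 ± 0.30 and 0.78 ± 0.29 (edgeR adjusted p = 0.0683 and 0.0678). The gene that rose was Cdc25b, for a phosphatase that removes the inhibitory phosphates from CDK1, with 24.9, 18.8, 14.9 and 21.2 CPM in DSS and 25.7, 37.5, 27.5 and 26.4 CPM in DSS+AP. Its groups did not overlap, and its log2 fold change was 0.55 ± 0.18 (edgeR adjusted p = 0.0455). Its relative Cdc25c, low in all libraries, spanned 2.48 to 6.58 CPM in DSS and 5.33 to 8.87 CPM in DSS+AP (log2 fold change 0.75 ± 0.32, adjusted p = 0.104). The cyclin genes Ccna2 and Ccnb2 spanned 26.8 to 97.3 CPM in DSS and 75.5 to 126 CPM in DSS+AP, and 11.5 to 32.8 CPM in DSS and 24.8 to 40.8 CPM in DSS+AP, and did not pass (edgeR adjusted p = 0.115 and 0.140).

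Among the 4 genes of chromatid separation Pttg1 rose and stood apart in its pattern. It encodes securin, the inhibitor of separase that is destroyed at anaphase (gene 30939; chromosome 11, 43420244 to 43427463). Its levels were 17.8, 19, 19.4 and 16.8 CPM in DSS and 24.8, 20.1, 23.4 and 22.1 CPM in DSS+AP, and every DSS+AP mouse lay above every DSS mouse. It was the one gene of the 58 with DSS 3 as the highest DSS mouse. Its rise was small, 0.31 ± 0.10 on the log2 scale (edgeR adjusted p = 0.0424), and its spread in DSS was narrow (from 18.3 ± 1.18 to 22.6 ± 1.97 CPM). Cdc20, for the activator that opens the anaphase-promoting complex to its targets, was at 36.7, 21, 15.2 and 23.3 CPM in DSS and 33.8, 56.3, 44.8 and 31.4 CPM in DSS+AP. Ube2c, which encodes the ubiquitin-conjugating enzyme of that complex, was at 39.5, 21, 14.9 and 23 CPM in DSS and 36.4, 57.3, 42.2 and 32.7 CPM in DSS+AP. In both, DSS 1 lay inside the DSS+AP range and DSS+AP 2 stood highest, with log2 fold changes of 0.79 ± 0.28 and 0.78 ± 0.29 that did not pass (edgeR adjusted p = 0.0594 and 0.0721). Espl1, the gene of separase itself, spanned 7.37 to 17.6 CPM in DSS and 15.2 to 25.4 CPM in DSS+AP (0.59 ± 0.26, adjusted p = 0.111).

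Plk1 gave the smallest p of the 58 genes. It encodes the polo-like kinase that acts on centrosomes, kinetochores and cytokinesis (gene 18817; chromosome 7, 122159435 to 122169884). It was at 40.8, 34.8, 29.2 and 31.2 CPM in DSS and 48, 64.3, 59.6 and 50.6 CPM in DSS+AP, with the groups well apart and DSS 1 less elevated than for most of the genes. It rose from 34 ± 5.08 to 55.6 ± 7.63 CPM, or by 0.71 ± 0.13 on the log2 scale (edgeR adjusted p = 0.00626). Aurka, the gene of the Aurora kinase of the spindle poles, also rose, with 21, 11.7, 8.98 and 13.8 CPM in DSS and 22.3, 32.2, 25.1 and 19.9 CPM in DSS+AP, but DSS 1 lay above DSS+AP 4 (0.84 ± 0.26, adjusted p = 0.0367). The chromosomal passenger complex, which corrects faulty attachments, is made by Aurkb, Incenp, Birc5 and Cdca8, and none of the 4 passed. Aurkb, its kinase, was at 21.7, 14.9, 7.31 and 14.9 CPM in DSS and 22.6, 26.6, 24.9 and 22.3 CPM in DSS+AP, without overlap between the groups (0.71 ± 0.27, edgeR adjusted p = 0.0739). Incenp, its scaffold, spanned 25.8 to 47.5 CPM in DSS and 42.1 to 60.1 CPM in DSS+AP. Birc5, for survivin, spanned 12.1 to 39.5 CPM in DSS and 26 to 45.1 CPM in DSS+AP, and Cdca8, for borealin, 11.5 to 30.6 CPM in DSS and 25.7 to 38.4 CPM in DSS+AP. In all 3 genes the DSS range reached into that of DSS+AP, with log2 fold changes of 0.45 ± 0.18, 0.53 ± 0.33 and 0.65 ± 0.27 (edgeR adjusted p = 0.0966, 0.246 and 0.104). Plk4, the kinase gene of centriole duplication, spanned 7.68 to 23 CPM in DSS and 16.7 to 25.7 CPM in DSS+AP (0.53 ± 0.30, adjusted p = 0.195).

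**Figure D4:**
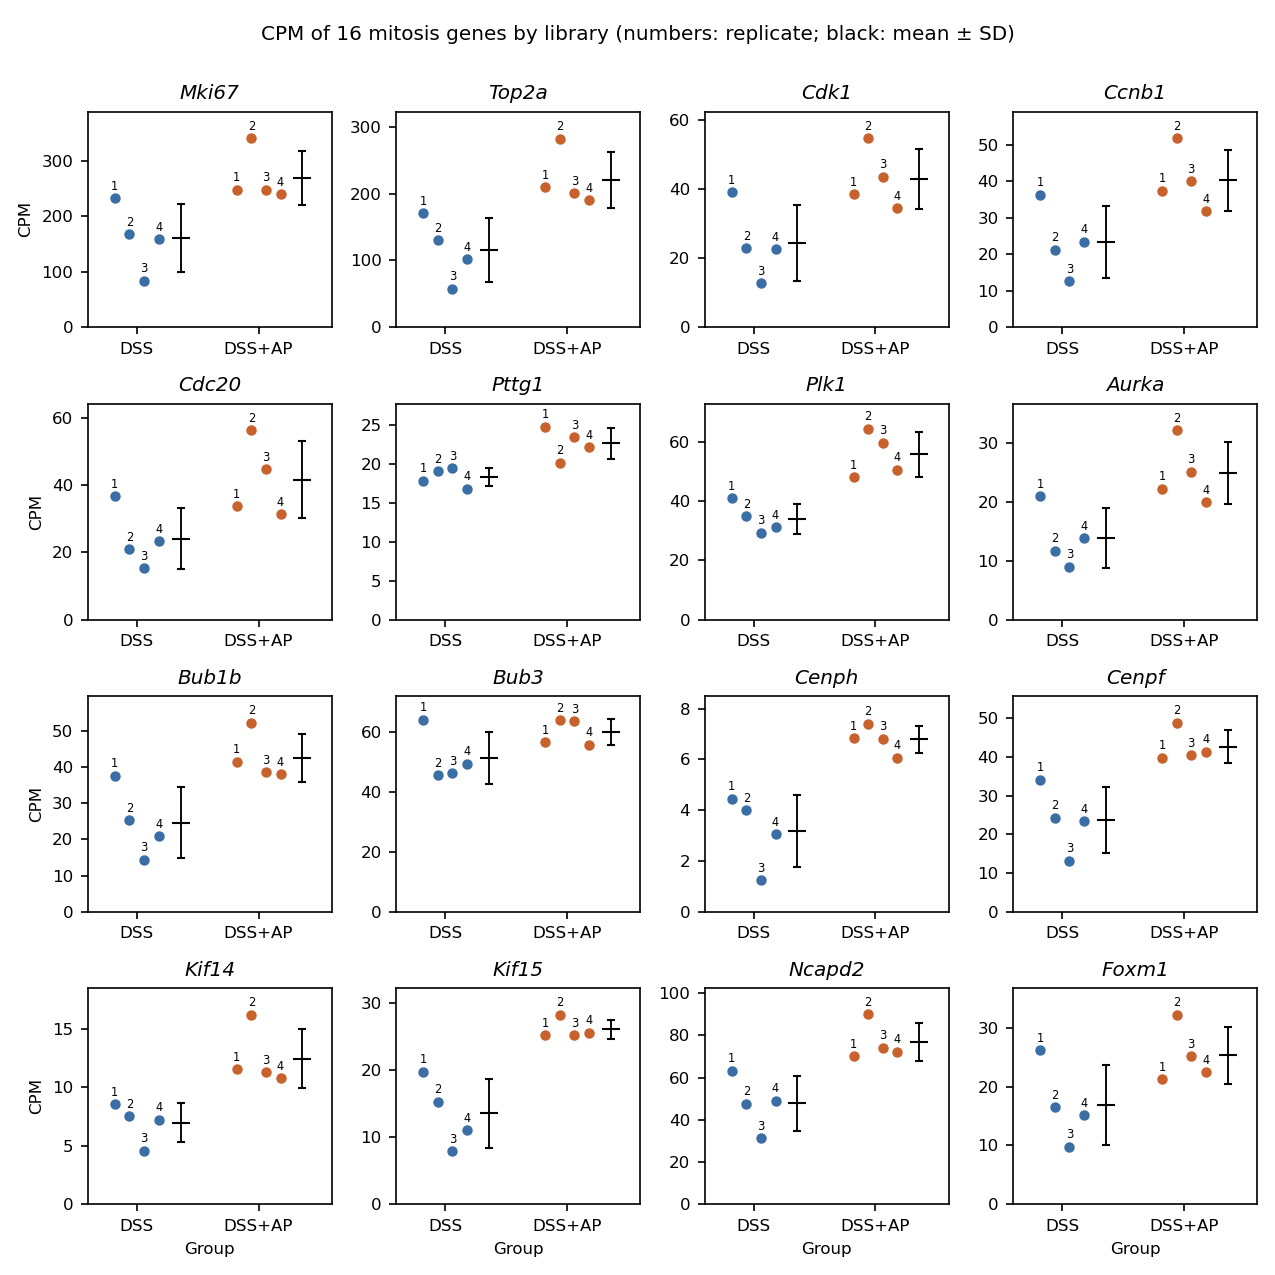
CPM in each library (points, DSS and DSS+AP side by side, numbered by replicate, with the group mean and its SD in black beside them) for 16 of the genes, each on its own vertical axis that starts at 0. The groups overlap for Cdk1, Cdc20 and Aurka, where DSS 1 lies among the DSS+AP mice, and do not overlap for Plk1, Kif14 and Pttg1.

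Of the 5 spindle checkpoint genes 1 rose. Bub1b, which encodes BubR1, the part of the checkpoint complex that binds CDC20, was at 37.7, 25.4, 14.4 and 20.9 CPM in DSS and 41.4, 52.3, 38.6 and 38 CPM in DSS+AP. The lowest DSS+AP mouse and the highest DSS mouse differed by less than 1 CPM, and the log2 fold change was 0.79 ± 0.26 (edgeR adjusted p = 0.0473). Bub1, the kinase gene that marks kinetochores for the checkpoint, was at 18.1, 11.7, 5.89 and 10.8 CPM in DSS and 19.1, 25.2, 19 and 16.9 CPM in DSS+AP. Mad2l1, for MAD2, the subunit that changes shape at unattached kinetochores, was at 36.6, 22.8, 13.1 and 20.8 CPM in DSS and 38.2, 49.8, 38.1 and 31.2 CPM in DSS+AP. DSS 1 overlapped the treated mice in both, and neither passed (0.79 ± 0.29, edgeR adjusted p = 0.0709, and 0.75 ± 0.28, adjusted p = 0.0710). Ttk, the gene of the checkpoint kinase MPS1, spanned 3.41 to 13.3 CPM in DSS and 13.9 to 18.6 CPM in DSS+AP, without overlap but with a wide spread in DSS (0.83 ± 0.33, adjusted p = 0.0878). Bub3, for the adaptor that brings BUB1 and BubR1 to kinetochores, had the smallest fold change of the 58 genes and spanned 45.6 to 64.2 CPM in DSS and 55.8 to 64 CPM in DSS+AP (0.22 ± 0.12, adjusted p = 0.180).

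The inner kinetochore, the set of proteins seated on centromeric chromatin, held the gene with the largest fitted change among the genes chosen here. Cenph (gene 26886; chromosome 13, 100759674 to 100775903) was at 4.46, 4.0, 1.24 and 3.04 CPM in DSS and 6.84, 7.41, 6.82 and 6.07 CPM in DSS+AP, low in all libraries and without overlap between the groups. It rose from 3.19 ± 1.43 to 6.79 ± 0.551 CPM, or by 1.08 ± 0.32 on the log2 scale (edgeR adjusted p = 0.0341). Its partners Cenpi and Cenpk did not pass. Cenpu, an inner kinetochore gene outside this group that is described below, rose by 1.15 ± 0.21 on the log2 scale. Cenpi was at 7.24, 5.06, 2.23 and 4.14 CPM in DSS and 8.58, 11.4, 8.0 and 7.0 CPM in DSS+AP (0.90 ± 0.32, adjusted p = 0.0607). Cenpk was at 5.57, 4.47, 1.67 and 2.37 CPM in DSS and 6.54, 6.48, 7.07 and 4.89 CPM in DSS+AP (0.82 ± 0.34, adjusted p = 0.102), with DSS+AP 3 in place of DSS+AP 2 as the highest mouse. Cenpa, the histone H3 variant that defines the centromere, spanned 8.49 to 22.8 CPM in DSS and 16.2 to 29.6 CPM in DSS+AP (0.59 ± 0.30, adjusted p = 0.158).

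At the outer kinetochore, which grips the spindle fibres, 1 of 6 genes rose. Cenpf, for a large coiled-coil protein of the kinetochore corona (gene 108000; chromosome 1, 189640606 to 189688107), was at 34.2, 24.3, 13.2 and 23.4 CPM in DSS and 39.8, 48.9, 40.4 and 41.4 CPM in DSS+AP. It rose from 23.8 ± 8.56 to 42.7 ± 4.23 CPM, and its 4 treated mice lay close together, above all DSS mice (0.84 ± 0.24, edgeR adjusted p = 0.0287). Cenpe, the gene of the corona's kinesin motor, was at 36.4, 24.8, 11.5 and 22.8 CPM in DSS and 38.3, 52.8, 32.1 and 33.6 CPM in DSS+AP (0.71 ± 0.31, adjusted p = 0.110). Spc24, one subunit of the NDC80 complex, was at 20.1, 10.4, 5.70 and 10.9 CPM in DSS and 20.2, 23.6, 19.9 and 15.5 CPM in DSS+AP (0.75 ± 0.32, adjusted p = 0.110). DSS 1 reached into the DSS+AP range in both. The other NDC80 complex genes were Ndc80, Nuf2 and Spc25, with log2 fold changes of 0.41 ± 0.29, 0.64 ± 0.32 and 0.53 ± 0.23 (edgeR adjusted p = 0.309, 0.152 and 0.113). Their levels were 4.46 to 13.1 CPM in DSS and 9.90 to 15.1 CPM in DSS+AP for Ndc80, 4.96 to 17.5 CPM in DSS and 14.7 to 21.5 CPM in DSS+AP for Nuf2 and 7.68 to 17.4 CPM in DSS and 13.6 to 19.3 CPM in DSS+AP for Spc25.

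Kinesins, the motors that slide and shorten spindle fibres, gave 3 rises among 10 genes. Kif14 encodes a motor of the midzone and cytokinesis (gene 381293; chromosome 1, 136466301 to 136555938) and was at 8.58, 7.53, 4.59 and 7.25 CPM in DSS and 11.6, 16.2, 11.3 and 10.8 CPM in DSS+AP. All 4 treated mice exceeded all DSS mice, and DSS 1 and DSS 3 differed by less than for most of the genes (0.83 ± 0.21, edgeR adjusted p = 0.0197). Kif15, whose motor helps to keep the spindle bipolar (gene 209737; chromosome 9, 122951081 to 123018733), was at 19.8, 15.3, 7.93 and 11.1 CPM in DSS and 25.3, 28.3, 25.2 and 25.6 CPM in DSS+AP. It rose from 13.5 ± 5.15 to 26.1 ± 1.47 CPM with a narrow treated group (0.94 ± 0.24, edgeR adjusted p = 0.0199). Kif11, for Eg5, the motor that pushes the spindle poles apart, was at 54.7, 35.2, 19.1 and 31.1 CPM in DSS and 61.7, 78, 60.9 and 55.6 CPM in DSS+AP, again without overlap (0.87 ± 0.27, adjusted p = 0.0407). The other 7 did not pass. Kif20a and Kif22, motors of the midzone and of chromosome arms, came nearest, with log2 fold changes of 0.77 ± 0.27 and 0.79 ± 0.27 (edgeR adjusted p = 0.0586 and 0.0535). They spanned 12 to 31.5 CPM in DSS and 29.3 to 47.9 CPM in DSS+AP, and 9.36 to 24.4 CPM in DSS and 22.9 to 34.3 CPM in DSS+AP. Kif2c, Kif4, Kif20b and Kif23 had log2 fold changes of 0.60 ± 0.28, 0.57 ± 0.27, 0.59 ± 0.27 and 0.45 ± 0.19 (edgeR adjusted p = 0.132, 0.135, 0.126 and 0.106). Kif2c, which takes apart fibre ends, spanned 6.44 to 18 CPM in DSS and 15.4 to 19.3 CPM in DSS+AP, and Kif4, a chromosome-borne motor, 12 to 31.3 CPM in DSS and 25.5 to 39.9 CPM in DSS+AP. Kif20b spanned 10.5 to 29.9 CPM in DSS and 24.8 to 35.8 CPM in DSS+AP, and Kif23, a subunit of the centralspindlin complex that starts the cleavage furrow, 23.1 to 45.2 CPM in DSS and 38.2 to 51 CPM in DSS+AP. Kif18a, which dampens chromosome movements at the metaphase plate, spanned 2.79 to 7.30 CPM in DSS and 4.96 to 9.92 CPM in DSS+AP and was one of 2 genes, with Ndc80, that passed under no alternative setting (0.46 ± 0.31, adjusted p = 0.285).

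Among the 4 spindle-associated genes Nusap1, which encodes a protein that bundles spindle fibres, rose. It was at 25.1, 18.8, 11.4 and 16.2 CPM in DSS and 27.4, 34.2, 29.6 and 27.2 CPM in DSS+AP, without overlap (0.72 ± 0.21, edgeR adjusted p = 0.0325). Aspm, for a protein that focuses the spindle poles, was at 16.6, 13.5, 8.80 and 13 CPM in DSS and 19.1, 24.2, 16.9 and 17.8 CPM in DSS+AP and just missed the threshold, also without overlap (0.58 ± 0.20, adjusted p = 0.0515). Hmmr, for a pole protein that binds hyaluronan when outside the cell, was at 25.4, 15.2, 8.12 and 15.6 CPM in DSS and 21.7, 42.8, 25.3 and 22.4 CPM in DSS+AP. DSS+AP 2 was high for Hmmr and the other treated mice lay at or below DSS 1 (0.80 ± 0.34, adjusted p = 0.103). Tpx2, the gene of the activator of Aurora A, spanned 14.9 to 44.5 CPM in DSS and 33.9 to 61 CPM in DSS+AP (0.66 ± 0.31, adjusted p = 0.134).

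None of the 3 genes of the midzone and cytokinesis passed, and DSS 1 lay within the DSS+AP range in all of them. Prc1, for the bundler of midzone fibres, was at 45.4, 30.8, 16.8 and 27.6 CPM in DSS and 44, 62.2, 49.7 and 40.7 CPM in DSS+AP (0.70 ± 0.27, edgeR adjusted p = 0.0764). Ect2, which encodes the exchange factor that activates RhoA at the furrow, was at 46, 30.8, 18.8 and 29.7 CPM in DSS and 46.8, 52.8, 46.1 and 40.5 CPM in DSS+AP (0.57 ± 0.23, adjusted p = 0.0906). Anln, for the furrow scaffold anillin, was at 39.5, 23.5, 14.3 and 21.6 CPM in DSS and 31.4, 41.5, 29.6 and 27.3 CPM in DSS+AP (0.39 ± 0.28, adjusted p = 0.304). For Anln, DSS 1 exceeded 3 of the 4 treated mice.

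Condensin, the ring complex that compacts chromosomes, gave 3 rises among 5 genes. The 3 that rose encode non-SMC subunits of condensin I, and no non-SMC subunit of condensin II was among the 5. The rises therefore do not set condensin I apart. Ncapd3 and Ncaph2, counted below with the other condensin genes, rose as well. Ncapd2 was at 63.2, 47.6, 31.1 and 49 CPM in DSS and 70.1, 90.02, 74.2 and 72.3 CPM in DSS+AP and rose from 47.7 ± 13.1 to 76.7 ± 9.06 CPM without overlap (0.68 ± 0.19, edgeR adjusted p = 0.0267). Ncaph was at 24.1, 14.7, 8.49 and 13.2 CPM in DSS and 26.7, 31.6, 24.2 and 26.3 CPM in DSS+AP, where DSS 1 and DSS+AP 3 nearly met (0.84 ± 0.27, adjusted p = 0.0438). Ncapg was at 21.6, 14.1, 8.37 and 12.9 CPM in DSS and 22.6, 32, 23.9 and 20.7 CPM in DSS+AP, with DSS 1 above DSS+AP 4 (0.80 ± 0.26, adjusted p = 0.0492). The 2 core ATPase genes that condensin I and II share, Smc2 and Smc4, did not pass. They spanned 18.8 to 50.2 CPM in DSS and 44.9 to 66.7 CPM in DSS+AP, and 50.9 to 95.7 CPM in DSS and 86 to 110.4 CPM in DSS+AP (0.68 ± 0.26, edgeR adjusted p = 0.0770, and 0.41 ± 0.18, adjusted p = 0.104).

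The 2 transcription factor genes did not pass either. Mybl2, whose product joins MuvB to switch on the G2 genes, was at 18, 12.1, 7.19 and 10.8 CPM in DSS and 17.6, 22.3, 20.3 and 14.7 CPM in DSS+AP (0.64 ± 0.26, edgeR adjusted p = 0.0895). Foxm1, for the forkhead factor that joins it later, was at 26.2, 16.5, 9.79 and 15.2 CPM in DSS and 21.4, 32.3, 25.2 and 22.5 CPM in DSS+AP (0.58 ± 0.27, adjusted p = 0.133). In both genes DSS 1 lay inside the DSS+AP range.

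Levels can be set against each other only per length, here as CPM per 1000 bases of exon in coding transcripts. The length joins the exons of all coding transcripts of a gene, so it can exceed that of the transcripts present. The order below depends on this length and was not tried with another. On that scale Top2a had the highest value of the 58 genes, going from 22.1 to 42.3 between the group means. Next in DSS+AP came Mki67 (16 to 26.7), Ccna2 (15.6 to 26.6), Plk1 (15.5 to 25.3), Cdc20 (13.4 to 23.2) and Smc4 (16.8 to 22.4). Differences between neighbours in this order were not tested. Kif14 had the lowest value in both groups, from 0.781 to 1.39, and Aspm (1.31 to 1.97) came next. Kif18a (1.49 to 2.05) followed in DSS+AP and Cenpi (1.45 to 2.71) in DSS. Every member was far above the floor of 3 counts (0.167 to 0.186 CPM), since the lowest count of any of them in any library was 20. Some counts are less certain than others. In 9 genes (Ccna2, Cenpk, Spc24, Kif20a, Nusap1, Hmmr, Prc1, Anln and Ncapg) estimated counts were not whole in at least 1 library. At least 10% of the exon bases lie opposite exons of a gene on the other strand in 7, namely Kif20a (29.3%), Ube2c (22.8%), Kif4 (15.1%), Ncapg (13.4%), Cdc25c (12.7%), Ccna2 (12.5%) and Prc1 (11.1%). The sources used here do not say whether counting used the strand.

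The 15 calls differed in how they held when 1 mouse was left out. Plk1 and Kif14 passed in all 8 such fits, with edgeR adjusted p of at most 0.0228 and 0.0485. Kif15 was lost without DSS 4 alone (0.0593). Ncapd2 passed in 4 of the 8 fits, Cenph, Cenpf and Nusap1 in 3, and Top2a, Pttg1 and Aurka in 2. Cdc25b, Bub1b, Kif11, Ncapg and Ncaph passed in 1, that without DSS 1. The largest adjusted p came without DSS 4 for 12 of the 13 genes that lost the call: 0.121 for Bub1b, 0.120 for Ncapg, 0.115 for Pttg1, 0.112 for Ncaph, 0.105 for Kif11, 0.102 for Top2a, 0.0873 for Nusap1, 0.0860 for Aurka, 0.0843 for Cenph, 0.0713 for Cenpf and 0.0627 for Ncapd2, besides Kif15. For Cdc25b it came without DSS+AP 2 (0.0895). No fold change of a called gene moved by more than 1.5 times. Pttg1 was the one called gene that lost its call without DSS 1.

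**Figure D5:**
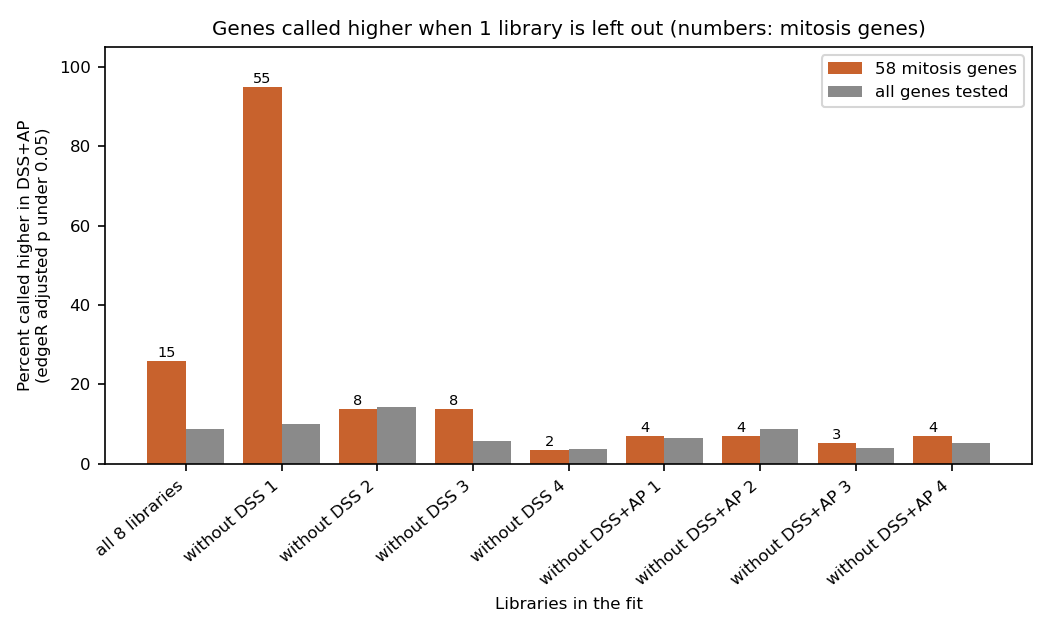
Share of the 58 genes that rose (edgeR adjusted p under 0.05) with all libraries and with each library left out in turn, as a percentage (orange, with the number of genes above each bar), beside the percentage of all genes tested that rose in the same fit (grey). The number is 15 with all libraries, 55 without DSS 1 and 2 without DSS 4.

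Some genes of mitosis outside the 58 rose as well. Of 100 tested in 4 lists, 20 rose (20%, against 8.84% of all genes) and 1 fell, with a median log2 fold change of 0.43. The count that rose was 48 without DSS 1 (against 9.96% of all genes), 21 without DSS 2 (14.3%), 10 without DSS 3 (5.77%) and 4 without DSS 4 (3.59%). It was 11, 6, 5 and 8 without DSS+AP 1, 2, 3 and 4 (6.53%, 8.82%, 3.82% and 5.15%), so without DSS 4, DSS+AP 2 or DSS+AP 3 it lay near or below the share of all genes. Other kinetochore and centromere genes gave 4 rises and 1 fall among 28 (median 0.53). Cenpu, another inner kinetochore subunit, was at 5.29, 5.30, 2.79 and 3.53 CPM in DSS and 9.66, 9.98, 9.11 and 8.98 CPM in DSS+AP, a rise of 1.15 ± 0.21 on the log2 scale (edgeR adjusted p = 0.00594). Zwint, which links the KNL1 scaffold to the checkpoint, was the one that fell, with 60.3, 51.2, 50.9 and 54.6 CPM in DSS and 46.9, 45.9, 43.2 and 42.8 CPM in DSS+AP (-0.28 ± 0.08, adjusted p = 0.0265). Every treated mouse lay below every DSS mouse for Zwint, though the call was lost in 6 of the 8 fits without 1 mouse (adjusted p up to 0.104, without DSS+AP 1). Other spindle, centrosome and cytokinesis genes gave 6 rises among 31 (median 0.59), led by the centriolar kinesin gene Kif24 (1.01 ± 0.21, adjusted p = 0.00954). Other mitotic kinases, cyclins and anaphase-promoting complex genes gave 8 among 27 (median 0.30), led by Haspin, the kinase gene that places the passenger complex on chromosomes (0.84 ± 0.14, adjusted p = 0.00479). Cohesin and other condensin genes gave 2 among 14 (median 0.26), of which the condensin II gene Ncapd3 had the smaller p (0.44 ± 0.14, adjusted p = 0.0373). That call was lost in 6 of the 8 fits without 1 mouse (up to 0.0983, without DSS 4).

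The phases before mitosis were looked at in 2 further lists. DNA replication licensing and clamp genes had a median log2 fold change of 0.78, and 5 of 14 rose (35.7%, against 8.84% of all genes). Cdt1, which loads the MCM helicase, was at 17.1, 12.4, 7.56 and 11.5 CPM in DSS and 21, 25.8, 24.1 and 20.3 CPM in DSS+AP (0.90 ± 0.22, edgeR adjusted p = 0.0158). The summed level of that list was 681, 521, 269.6 and 404 CPM in DSS and 732, 902, 772 and 678 CPM in DSS+AP, the same order of mice as the mitotic genes within DSS. G1 cyclins, CDKs, their inhibitors and the E2F and pocket proteins had a median of 0.27, and 5 of the 29 tested rose (17.2%). Rbl1, for the pocket protein p107, had the smallest p there (0.55 ± 0.11, adjusted p = 0.00855).

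Markers of the cells that a piece of colon holds moved with the groups in some lists, while in others few genes were called. Their counts stand against 8.84% of all genes that rose and 20.4% that fell. Those of the epithelial, stem, absorptive and goblet cells rest on 1 to 3 genes a list. Of the epithelial markers 2 of 10 rose and 1 fell, with a summed level of 12886 to 15314 CPM in DSS and 14097 to 16155 CPM in DSS+AP. Crypt stem cell markers gave 3 rises among 7 tested (716 to 1128 CPM in DSS and 964.5 to 1163 CPM in DSS+AP), absorptive colonocyte markers 1 rise among 8 (5002 to 9244 CPM and 5193 to 17289 CPM) and goblet cell markers 2 rises and 1 fall among 8 (22689 to 46760 CPM and 28558 to 35297 CPM). Lists of the gut wall were lower: 7 of 8 smooth muscle markers fell (2504 to 4147 CPM in DSS and 1156 to 2421 CPM in DSS+AP), 8 of 8 fibroblast markers (2258 to 5341 CPM and 1183 to 1871 CPM), 6 of 6 endothelial markers (134 to 229 CPM and 78.7 to 98.4 CPM) and 8 of 8 of enteric neurons and glia (80.4 to 129.9 CPM and 19.3 to 42.4 CPM). Among immune cells, 8 of 8 macrophage markers fell (346 to 792 CPM and 269 to 366 CPM), 6 of 6 neutrophil markers (52.0 to 308 CPM and 10.02 to 44.2 CPM) and 8 of 8 B cell markers (13.9 to 116 CPM and 5.70 to 13.8 CPM). Germinal centre B cells, which divide fast, gave 3 falls among 4 tested markers (53.6 to 76.1 CPM and 33.9 to 40.3 CPM), and T cells 1 rise and 1 fall among 7 (32.7 to 44.6 CPM and 30.4 to 48.2 CPM). No marker was at 0 in all libraries. Within DSS, DSS 1 had the lowest summed epithelial markers (12886 CPM) and the highest neutrophil (308 CPM) and fibroblast (5341 CPM) markers. DSS 3 had the highest epithelial (15314 CPM) and lowest neutrophil (52.0 CPM) markers. The other lists ordered these mice in several ways. Smooth muscle and enteric neuron and glia markers were highest in DSS 1, absorptive markers in DSS 3 and crypt stem cell markers in DSS 2. Goblet, endothelial, T, B, germinal centre B cell and macrophage markers were highest in DSS 4. Fibroblast markers were lowest in DSS 2 (2258 CPM). The part of these cell types in the difference of the mitotic genes was not tested.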

How the data were processed

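Per the labels' protocols, colon RNA was column-purified and made into messenger RNA libraries with SMARTER chemistry. HISAT2 2.1.0, Bowtie2 2.2.5, RSEM 1.2.8 and GRCm38.p6 appear in the submitters' processing notes, with no roles given. The authors deposited estimated counts that are not scaled for depth, and 10.7% to 11.5% of them per library were not whole. Library totals lay between 16089081 and 17104290 estimated counts, and the floor of 3 counts reflects counting error only.

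After rounding, genes were filtered with filterByExpr and TMM factors were computed. The robust quasi-likelihood F test of edgeR 4.0.16 (R 4.3.3) then compared the groups, with no covariate and with p-values adjusted by Benjamini-Hochberg over all 14578 genes that passed the filter. Genes with an adjusted p under 0.05 are said to have risen or fallen. The procedure was tested on simulated data. CPM are relative to TMM-scaled totals of those genes, and log2 CPM values include a prior count of 2. Alternatives were other scaling factors and filters, a fit that is not robust, a replicate block, DESeq2 1.42.0, limma-voom (limma 3.58.1) with quality weights, and leaving out each library.

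The 58 genes were sorted into 12 roles, and the values of all libraries are given for the 3 genes of each role with the smallest p, and for Mki67, Top2a and Cdk1 (34 genes). Each of the 6 lists of related genes is represented by its called gene with the smallest p in each direction, and the 13 marker lists by counts and summed levels. The genes and lists were chosen with earlier results of these data known. Sequences and coordinates are from RefSeq, and exon overlaps from a GENCODE annotation of the same build. Figures were drawn with matplotlib 3.10.9.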

Additional observations from a re-analysis of the deposited data

Results flagged for a closer look

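The level of 4 genes in DSS+AP 2 lay apart from the 3 other DSS+AP mice. The gap, relative to the range of the group, was larger than Dixon's 95% critical value for groups of 4. Mki67 was at 341 CPM there and at 239.6 to 247.9 CPM in the others. Kif14 was at 16.2 CPM, against 10.8 to 11.6 CPM. Cdc25b was at 37.5 CPM, against 25.7 to 27.5 CPM. Kif15 was at 28.3 CPM, against 25.2 to 25.6 CPM, a small gap that stood out because the 3 others were nearly equal. They were 4 of 132 groups of values looked at, and chance alone gives such a gap in about 1 of 20 groups. The 58 genes share their libraries, so these 4 are not separate events.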

How the results depend on the processing

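Over 17 alternatives no gene of the 58 changed sign and none was called lower. Of 986 values of single genes under single alternatives, 791 kept their side of the threshold, 96 lost a call and 99 gained one. The count that rose, 15, was 17 with RLE factors, 10 with upper quartile factors, 6 with library totals, 16 without a low-count filter, 14 with a minimum of 1 CPM, 15 without robust estimation, 35 with DESeq2 and 50 with limma-voom. Leaving out 1 library gave 2 (without DSS 4) to 55 (without DSS 1). The median log2 fold change of 0.71 ranged from 0.52 (without DSS 3) to 1.0 (without DSS 1). Among the 100 other mitotic genes, 20 rose (8.84% of all genes), against 12 with upper quartile factors (6.75%), 9 with library totals (5.26%), 38 with DESeq2 (13.7%), 55 with limma-voom (16.5%), and 4 (without DSS 4, 3.59%) to 48 (without DSS 1, 9.96%) with 1 library left out. The 1 that fell, Zwint, was not called without a low-count filter (0), nor in 6 of the 8 fits with 1 library left out (0 to 1). With the replicate number as a block, 7 of the 58 genes and 6 of the 100 other mitotic genes rose and 0 fell. Of all 14578 genes 582 rose in that fit (3.99%) and 1967 fell. Deviations from the group means correlated across genes by -0.14, -0.45, 0.36 and -0.19 in libraries of the same number. In libraries of different numbers the correlations ran from -0.47 to 0.51. The sources used here do not say that the numbers pair mice, and correlations that vary this much cannot decide it. The lowest count of any of the 58 genes was 20 (Cenph in DSS 3), so counting error was largest for rare genes such as Cenph.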
